A study of Gallus gallus with 8 samples.

Results

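Peripheral blood mononuclear cells (PBMC) of chickens were described from 4 single-colour microarrays, titled PBMC_1 to PBMC_4, out of 8 arrays in the series. The members were all 4 arrays with those titles, and no array was added or dropped. Each array measured the PBMC of 1 of 4 male broilers, 9 weeks old, kept on a conventional diet with no treatment of the birds. The cells had been separated on a Ficoll density gradient, and the replicate number identifies the bird. The other 4 arrays held whole blood of the same birds and served only to ask whether a bird that stood apart in PBMC also did so in its blood. No strain, genotype or health record beyond this is given in the sources used here.

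Chicken blood differs from mammalian blood in that red cells and thrombocytes, the avian counterpart of platelets, keep their nucleus and can carry messenger RNA. A density gradient collects lymphocytes, monocytes and thrombocytes at the interface, while red cells and most heterophils, the avian counterpart of neutrophils, sink. A PBMC transcriptome of a chicken is therefore a mixture of T cells, B cells, cytotoxic and natural killer cells, monocytes, thrombocytes and whatever other cells came along.

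A level is the log2 of the processed spot signal minus the log2 of the 75th percentile of that array, so a level of 0 is the signal that 75% of an array's spots did not exceed. Where several probes carried the same gene name, the brightest over the 4 PBMC arrays stood for the gene. Because a probe's brightness also depends on its sequence, the order below ranks signals and not numbers of transcripts. A probe counted as detected on an array where the scanner software marked it as well above background. Of 60539 probes, 17618 (29.1%) could be named, and they gave 7105 named genes. The remaining 42921 features were unnamed probes, and of the 100 brightest features 31 were named.

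The arrays were similar in overall quality. Between 66.6% and 72.1% of probes were detected per array, the signal at the 75th percentile ranged from 745 to 846, and no spot was saturated. Levels correlated between any 2 of the 4 arrays at 0.980 to 0.984 across features, which are not independent replicates. All arrays lay on 1 slide. Birds 2 and 4 were in slide row 1 and birds 1 and 3 in slide row 2, also for their whole blood, so slide row and this division of the birds cannot be told apart. On all 4 PBMC arrays 5336 of 7105 named genes (75.1%) and 31981 of 50026 features (63.9%) were detected. The mean level was above 0 for 2967 named genes (41.8%) and for 23.6% of all features.

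Genes that mark the main mononuclear cell types were all present. CD3E, a chain of the T cell receptor complex, read 6.07, 5.99, 6.33 and 6.31 in birds 1 to 4 and ranked 81 of 7105. CD79B, the signalling partner of the B cell receptor, read 5.37, 4.37, 4.56 and 4.55 and ranked 262. LY86, a cofactor of the receptor CD180 on myeloid and B cells, read 4.11, 4.22, 4.78 and 4.54 and ranked 320. On these brightest probes the 3 genes lay in the upper range of named genes in every bird, with bird 1 alone standing higher for CD79B. The other CD3E probes averaged 2.89, 2.83 and 1.49, the other CD79B probe averaged 1.13, and LY86 had 1 probe. GZMA, a protease of cytotoxic granules, read 2.45, 4.01, 2.83 and 3.09 and ranked 749. ITGA6, an integrin chain that serves here as a thrombocyte marker, read 0.83, 1.05, 0.54 and 0.38 and ranked 2431. GZMA was highest in bird 2, and ITGA6 was well below the brightest thrombocyte genes described further on.

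The 30 named genes with the highest signal were mostly those of protein synthesis. Ribosomal proteins made up 12 of the 30, 25 of the 50 and 33 of the 100 highest. RPLP1, an acidic protein of the ribosomal stalk, read 8.02, 7.86, 8.10 and 8.26 (mean 8.06 ± 0.17, SD, n = 4). RPS15 of the small subunit followed at 8.0 ± 0.14 and RPL7A of the large subunit at 7.99 ± 0.21. The elongation factors EEF1A1, which delivers charged tRNA to the ribosome, and EEF2, which moves the ribosome along the messenger, stood at 7.45 ± 0.08 and 7.42 ± 0.09. RACK1, a scaffold bound to the ribosome, reached 7.78 ± 0.13 and TPT1, whose messenger is controlled at translation, 7.83 ± 0.08.

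**Figure D1:**
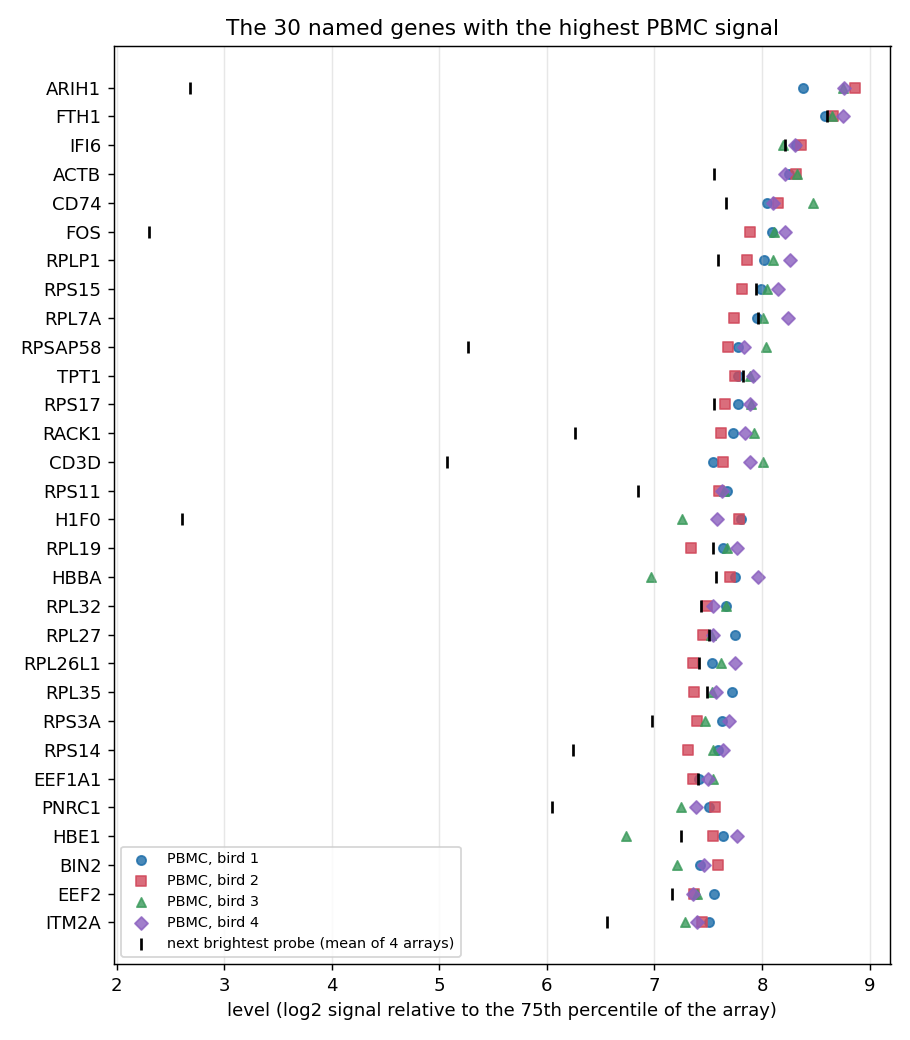
The 30 named genes with the highest mean PBMC level, in order from top to bottom. The x axis gives the level (log2 signal relative to the array's 75th percentile); the 4 coloured symbols are the 4 birds and the black tick is the mean of the gene's next brightest probe. The symbols of a gene lie close together except for HBBA and HBE1, where bird 3 is low, and the tick lies far to the left for ARIH1, FOS and H1F0.

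Several genes above the ribosomal proteins belonged to other functions. FTH1, the heavy chain of the iron store ferritin, read 8.59, 8.66, 8.65 and 8.76, and its next brightest probe averaged 8.60. IFI6, named for its induction by interferon in mammals, read 8.31, 8.36, 8.20 and 8.31, with a next probe at 8.21. ACTB, the cytoplasmic actin of the cell cortex, read 8.25, 8.32, 8.33 and 8.21. For these 3 genes the birds lay close together, and the next probe of ACTB averaged 7.56. CD74, the invariant chain that guides MHC class II molecules, read 8.05, 8.14, 8.47 and 8.10, highest in bird 3. CD3D, a T cell receptor chain, read 7.54, 7.64, 8.01 and 7.89, and its other probe averaged 5.07.

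The place of 5 of the 30 genes rested on a single probe that was more than 2 log2 units above the gene's next probe. ARIH1, a ubiquitin ligase, headed the order at 8.38, 8.87, 8.76 and 8.76, while its other 8 probes averaged 2.68 or less. FOS, a transcription factor gene of the immediate early response, averaged 8.08 on one probe and 2.30 and -3.72 on the others. H1F0, the name under which the reference lists the red cell histone H5, averaged 7.61, and its other probes 2.61 and -3.94. RPSAP58, in human the name of a pseudogene related to the ribosomal protein SA, averaged 7.83 and 5.27. CD3D was the last of these. Which of the disagreeing probes reports the gene was not tested, and the place of ARIH1 and FOS in the order holds for that probe alone. Of the 29 genes with several probes, 21 had a next probe within 1 log2 unit.

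The order within the 30 was not finely resolved. Their mean levels spanned 1.29 log2 units, and 28 of the 29 neighbouring pairs differed by less than the larger of their SDs. Of the 30, 22 were also among the 30 highest on every array, and 29 were among the 50 highest. The exception was HBE1, a beta-type globin, which held place 18 to 21 in birds 1, 2 and 4 and place 58 in bird 3. ITM2A, a membrane protein also made by T cells, was the last gene inside the 30 at 7.41 ± 0.10, and HBA1, the alpha-A globin, the first outside at 7.37 ± 0.69.

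Beyond protein synthesis, the 100 highest genes included 7 of antigen presentation, 5 of the actin cytoskeleton, 4 thrombocyte genes, 4 globins, 3 T cell genes and 3 glycolytic enzymes. Among the antigen presentation genes were BF2 (6.41 ± 0.41) and BF1 (6.36 ± 0.47), the classical class I genes of the chicken MHC, with their light chain B2M (6.67 ± 0.30). TAPBP, which loads class I molecules, reached 6.68 ± 0.19, and TAP2, part of the peptide transporter, 6.06 ± 0.07. All 10 matched genes of this list were above 0, with a median of 6.22, against a median of -0.96 over all named genes. TAP1, the partner of TAP2, was the lowest of them at 1.39 ± 0.36. The actin list had a median of 4.73 over 17 genes and was led after ACTB by the actin-binding TMSB4X (7.10 ± 0.16).

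Energy metabolism was also prominent. GAPDH, LDHA and ALDOC, enzymes of glycolysis, averaged 7.01, 6.78 and 6.70, and the 15 glycolytic genes had a median of 3.55. The next probes of GAPDH and LDHA averaged 6.83 and 6.76, but the other ALDOC probes only 2.56 and 2.10. The 32 nuclear genes of oxidative phosphorylation had a median of 3.02 and were led by ATP5I at 5.53 and COX4I1 at 5.50. Of those 32 genes, 29 had a level above 0, where the share over all named genes was 41.8%. None of 13 genes encoded by the mitochondrial genome could be matched to a named probe, so their levels were not analysed here.

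Over all named genes 75.1% were detected on all 4 arrays, 41.8% were above 0 and the median was -0.96. The counts of each list below stand against these shares. T cell genes had the highest median of the lymphocyte lists. All 17 matched genes were detected on all 4 arrays, with a median of 2.20 and 13 above 0. After CD3D and CD3E came GATA3, a transcription factor of T cells, at 5.93 ± 0.13, and CD247, the zeta chain, at 4.98 ± 0.14. The co-receptor CD4 read 1.94, 1.63, 2.31 and 2.13. CD8A, the other co-receptor chain, read 1.22, 0.98, 1.34 and 0.80. CD8BP, the entry to which the CD8 beta chain was matched, stood at 3.58 ± 0.58 and was highest in bird 4 at 4.43. Levels of different probes do not give the ratio of CD4 to CD8 cells. IL7R, the survival receptor of resting T cells, averaged 2.45, and CTLA4 and ICOS, which activated T cells display, -0.38 and -2.16.

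B cell genes were detected in 13 of 14 cases, with a median of 1.17 and 8 above 0. CD79B led, followed by SH2D6, the entry to which the adaptor BLNK was matched through a synonym, at 4.14 ± 0.34, and BTK, a kinase of the B cell receptor, at 4.04 ± 0.34. The next probes of SH2D6 and BTK averaged 1.59 and 0.62. PAX5, the transcription factor that defines B cells, read 0.37, -1.08, -0.48 and -0.89. It was highest in bird 1, as were CD79B (5.37) and BCL11A (2.10). JCHAIN, the joining chain made by antibody-secreting cells, averaged -3.06. The brightest SYK probe, at 3.77, differed from the only ZAP70 probe by at most 0.02 on any array, while the next SYK probe averaged 1.23. This pair of probes may not tell the genes apart, and SYK is counted in the B cell list and ZAP70 in the T cell list.

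Cytotoxic and natural killer cell genes were fewer among the bright genes. All 12 matched genes were detected, 5 were above 0 and the median was -0.44. Over all named genes 41.8% were above 0 and the median was -0.96, so this list lay near that background. GNLY, a pore-forming granule protein, read 5.18, 6.13, 5.69 and 5.99. CST7, an inhibitor of the proteases that activate granzymes, averaged 4.40 and the chemokine XCL1 0.74. The granzymes GZMM and GZMK averaged 0.49 and -0.14. IFNG, the main cytokine of these cells, was the dimmest of the list at -3.81 ± 0.10.

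Monocyte and macrophage genes were detected in 17 of 18 cases, with a median of 1.24. CTSS, a lysosomal protease that cuts the invariant chain, read 5.56, 5.72, 6.50 and 6.22, and its next probe averaged 1.35. VCAN, a proteoglycan of monocytes, read 2.40, 3.40, 4.42 and 3.60. The lineage factor SPI1 read 1.97, 2.15, 3.05 and 2.77. Each of these 3 genes was lowest in bird 1 and highest in bird 3. CD14, a lipopolysaccharide co-receptor, was detected on none of the 4 arrays. In mammals it defines monocytes, and its 3 probes here all stayed near the floor of the scale, with the brightest at -7.52. CTSB, a lysosomal protease made by many cells, averaged 5.04, and bird 3 was the lowest there.

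The brightest thrombocyte genes ranked above those of the B cell and monocyte lists. BIN2, a membrane-bending protein abundant in blood cells, read 7.42, 7.59, 7.21 and 7.46 on its only probe. ITGB3, the beta chain of the fibrinogen receptor, read 7.16, 7.30, 6.71 and 6.88, but its next probe averaged 0.08. TUBB1, the tubulin of the platelet ring, read 6.50, 6.31, 5.99 and 6.32, and its next probe averaged 3.23. All 3 genes were lowest in bird 3. The transcription factor FLI1 averaged 5.17 and GP1BA, part of the receptor for von Willebrand factor, 1.33. Of 14 matched genes 12 were detected on all 4 arrays and 11 were above 0, with a median of 1.67. The shares over all named genes were 75.1% and 41.8%. MMRN1 was detected on no array, VWF on 1, and the matrix protein THBS1 stood at -4.34 ± 0.97.

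**Figure D2:**
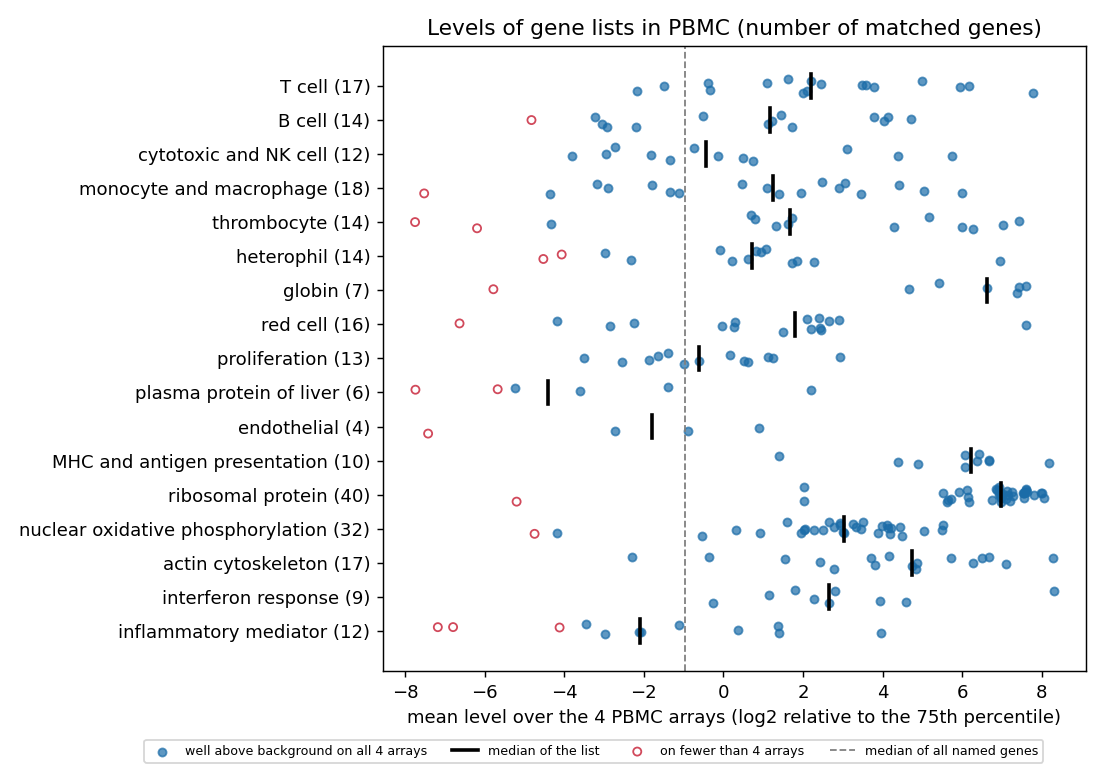
Mean PBMC levels (x axis, log2 relative to the 75th percentile) of the genes of 17 lists, with the number of matched genes in brackets. Filled points were well above background on all 4 arrays, open points on fewer, bars are list medians and the dashed line is the median of all named genes (-0.96). Ribosomal, globin and MHC genes lie farthest to the right, and liver plasma proteins farthest to the left.

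RNA of red cells was still present. The 20 globin probes took 1.1%, 1.27%, 0.601% and 1.46% of the summed signal in birds 1 to 4 (mean 1.11 ± 0.37, SD, n = 4). HBBA, an adult beta globin, read 7.75, 7.70, 6.97 and 7.96. HBA1 read 7.31, 7.70, 6.43 and 8.03, and HBAD, the alpha-D globin, 6.45, 6.97, 5.49 and 7.56. The 3 genes were highest in bird 4 and lowest in bird 3, as were HBE1 and the beta-type globins HBE and HBBR. The other HBE1 probes averaged from 7.25 down to -6.87. Whether the probes of these related genes measured them separately was not tested. Of 7 matched globins 6 were detected on all arrays. HBZ, the name of an embryonic alpha-type globin, was detected on 1 array, at a mean of -5.78.

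Besides H1F0, the list of red cell genes held FECH, which inserts iron into haem (2.90), GLRX5, of iron-sulphur cluster assembly (2.65), CA2, the carbonic anhydrase of red cells (2.43), and TFRC, the transferrin receptor (-2.25). The list had 16 matched genes, 15 detected on all arrays, and a median of 1.80. Its summed signal ranged from 189 times the 75th percentile signal in bird 3 to 287 times in bird 2. The largest part of that sum was the bright H1F0 probe, which lay far above the gene's next probe at 2.61. The range therefore says little about the rest of the list. XK, a membrane protein of red cells, was detected on no array, and the mitochondrial iron carrier SLC25A37 stood at -4.18. Whether a lower level came from fewer cells of a type or from less RNA per cell cannot be told apart here, for this list or any other.

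Heterophil genes were detected in 12 of 14 cases, against 75.1% of all named genes, with a median of 0.71. EXFABP, a lipocalin that binds bacterial iron carriers, read 6.46, 6.79, 7.48 and 7.01 and ranked 48. The granule peptides followed far below, with the defensin AvBD1 at 2.28 ± 0.54 and the cathelicidins CATH2 and CATH1 at 1.84 ± 0.58 and 1.72 ± 0.58. CSF3R, the receptor for the growth factor of these cells, read -0.03, 0.84, 1.87 and 1.59. MMP9, a granule protease, read -6.12, -3.24, -4.08 and -4.65 and was well above background on 3 of the 4 arrays. The list's summed signal ranged from 107.4 times the 75th percentile signal in bird 1 to 211.6 times in bird 3, and EXFABP was its largest part. The 6 matched plasma proteins of liver had a median of -4.42 and the 4 endothelial genes -1.80, and CDH5, which defines endothelium, was detected on no array. Detected on all arrays were 4 of the 6 liver genes, led by TF, the iron carrier transferrin, at 1.24, 1.88, 3.01 and 2.69. So were 3 of the 4 endothelial genes, led by the adhesion molecule PECAM1 at 0.90. Neither count exceeded the 75.1% of all named genes that were detected.

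The birds differed in how these lists lay on their arrays. For each gene detected on all 4 arrays, the deviation from its own mean was taken, and the median deviation of a list was compared between birds. Over all detected features this median lay between -0.0041 and 0.0119 on the 4 arrays. Of those 31981 features, birds 1 to 4 were highest for 8920, 8190, 8463 and 6408 and lowest for 8706, 7933, 7877 and 7465. The counts of genes highest or lowest in a bird below stand against that background. Globins deviated by 0.17, 0.21, -0.87 and 0.42 in birds 1 to 4, and bird 3 was lowest and bird 4 highest for 6 of 6 genes. Monocyte genes deviated by -0.54, -0.15, 0.59 and 0.12, with bird 3 highest for 15 of 17 genes and bird 1 lowest for 13. Thrombocyte genes deviated by 0.18, 0.20, -0.30 and -0.02, with bird 3 lowest for 10 of 12 genes. Bird 3 therefore had the lowest globin and thrombocyte levels and the highest monocyte levels of the 4.

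Cytotoxic genes deviated by -0.64, 0.31, -0.13 and 0.34, and no gene of that list was highest in birds 1 or 3. B cell genes deviated by 0.36, -0.20, 0.04 and -0.30, with bird 1 highest for 8 of 13 genes. Heterophil genes deviated by -0.02, 0.25, 0.49 and -0.68, with bird 4 lowest for 8 of 12 genes and bird 1 for 3, among them EXFABP and CSF3R. T cell genes moved less, between -0.18 in bird 2 and 0.19 in bird 3. Ribosomal proteins were lowest in bird 2 for 37 of 39 genes, by a median of only 0.20 below their mean. Genes of the interferon response were highest in bird 2 for 8 of 9 genes, with a median deviation of 0.44. IRF1 was the exception, at 4.49 in bird 2 and 4.71 in bird 3. OASL, an antiviral enzyme family member, read 3.09, 4.95, 3.51 and 4.17, and MX1, an antiviral GTPase, -1.0, 0.94, -0.32 and -0.69.

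**Figure D3:**
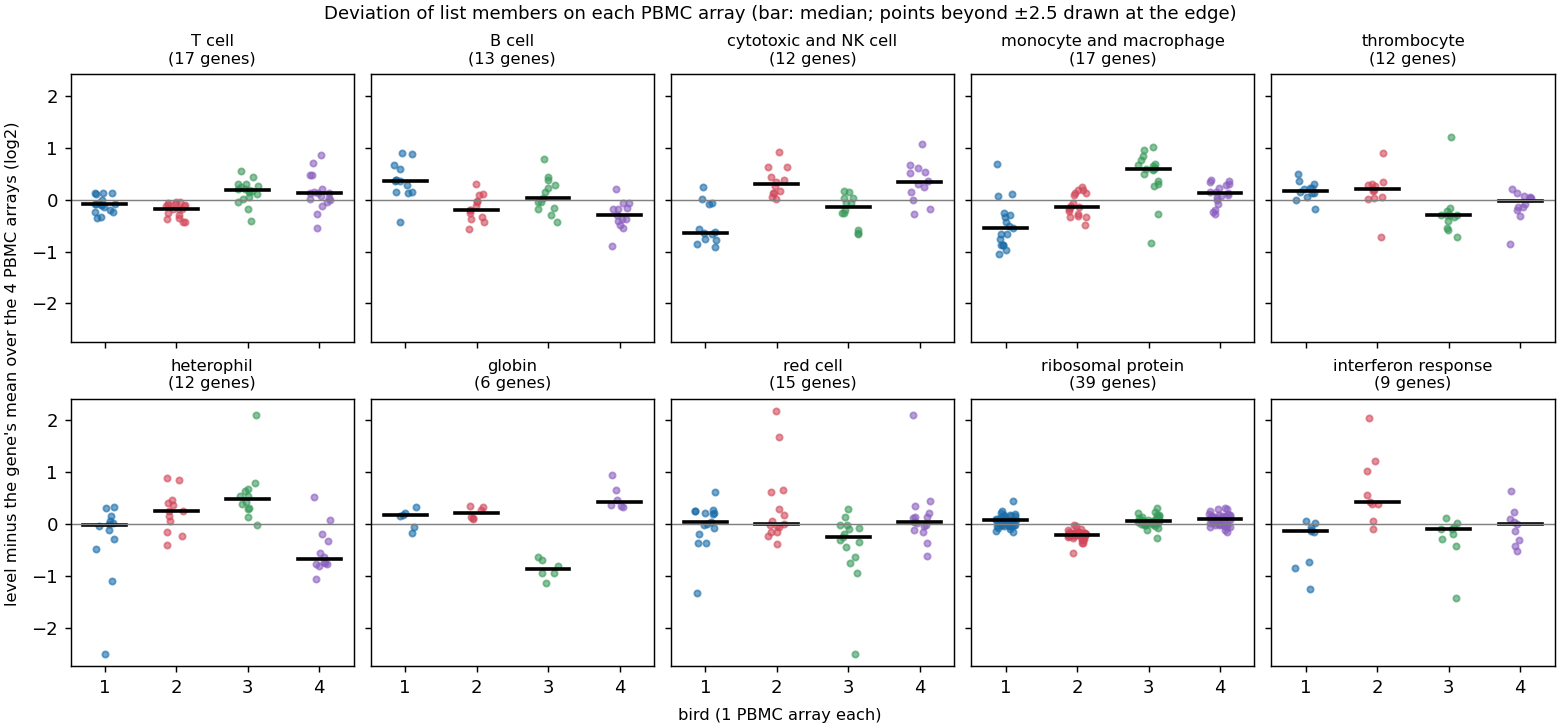
Deviation of each gene's level from its own mean over the 4 PBMC arrays (y axis, log2), by bird (x axis), for 10 lists. Points are genes detected on all 4 arrays and bars are list medians; globins are low in bird 3, monocyte genes low in bird 1 and high in bird 3, and interferon genes high in bird 2.

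Some of these differences recurred in the whole blood of the same birds, a separate RNA sample of each bird. Cytotoxic genes deviated in whole blood by -0.42, 0.34, -0.20 and 0.50, the same signs as in PBMC. B cell genes deviated there by 0.26, -0.16, 0.00 and -0.07, again highest in bird 1. Heterophil genes deviated by 0.58, 0.13, 0.37 and -1.11, lowest in bird 4 as in PBMC. The list was split: AvBD1, CATH1 and CATH2 were lowest in bird 4 in whole blood. EXFABP, CSF3R and MMP9 were highest there in bird 4, at 7.35, 1.59 and 2.86. Monocyte genes were lowest in bird 1 in both (-0.53 in whole blood), but bird 3, highest in PBMC, stood at -0.04 in whole blood. Globins moved in whole blood by no more than 0.08 and thrombocyte genes by no more than 0.11. The low globin level of bird 3 was seen in its PBMC and not in its whole blood. T cell genes, lowest in bird 2 in PBMC, were highest in bird 2 in whole blood (0.15). Ribosomal genes of bird 2 stood at 0.05 in whole blood. Interferon genes stood there at 0.12 in bird 2 and 0.10 in bird 3.

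A bird term fitted over all 8 arrays asked which features differed between birds in the same way in both sample types. With limma's moderated F-test and Benjamini-Hochberg adjustment over all tested features, 1061 of 34076 (3.11%) passed 0.05. Against that background, 5 of 12 cytotoxic genes passed, and 0 of 17 T cell, 0 of 12 thrombocyte, 0 of 7 globin and 0 of 40 ribosomal genes. An unadjusted p under 0.05 was reached by 3 of those T cell, 2 thrombocyte, 1 globin and 1 ribosomal gene, by 7 of the cytotoxic genes, and by 11 of 14 heterophil genes, of which 0 passed after adjustment. At this number of arrays a p above the threshold does not show that birds were alike. GZMK read -0.99, 0.29, -0.79 and 0.92 in PBMC and -4.15, -2.87, -4.40 and -2.32 in whole blood (limma adjusted p = 0.0144). Birds 2 and 4 were higher than birds 1 and 3 in both. GZMM read -0.14, 1.12, -0.18 and 1.17 in PBMC with the same division in whole blood (adjusted p = 0.0349). GZMA was highest in bird 2 in both sample types (adjusted p = 0.0342), and EOMES, the transcription factor of these cells, and the chemokine CCL5 also passed (adjusted p = 0.0349 and 0.0426).

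The cytotoxic count rested on few arrays. It fell to 1 of 12 without the PBMC of bird 1, 0 without that of bird 2, 3 without that of bird 3 and 0 without that of bird 4, and to 0 with no filter on dim probes. VCAN and CD86 of 17 monocyte genes and PAX5 of 13 B cell genes also passed (limma adjusted p = 0.0408, 0.0436 and 0.045), and each lost the call when any 1 PBMC array was left out. So did MX1 of 9 interferon genes, ACOD1 of 9 inflammatory mediators and PECAM1 of 3 endothelial genes pass (limma adjusted p = 0.0339, 0.0358 and 0.041). MX1 and ACOD1 each kept the call in 1 of the 4 runs that left out a PBMC array, and PECAM1 in 0. The slide rows lay apart for PECAM1 in both sample types. The contrast between slide rows within the same fit passed for 1049 of 34076 features (3.08%). GZMK was 1.58 ± 0.15 (SE) and GZMA 0.86 ± 0.14 log2 units higher in row 1, and GZMM had the same division of birds. Bird and row cannot be told apart for these genes. Within PBMC alone, row 1 against row 2 gave 0 of 31981 calls (0.0%) with limma, with 1792 features at an unadjusted p under 0.05. The levels of the rows did not overlap for 32.2% of detected features. With so few arrays in a row, a random order of the arrays gives about this share. It does not by itself show a row difference.

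Most genes varied little between birds. The median SD over the 4 arrays was 0.23 for detected named genes and 0.25 for detected features. Probes spotted in duplicate differed within an array by a median SD of 0.07, against 0.25 between arrays for the same probes. The first covers the noise of single spots only. The median SD fell from 0.32 for features with a level below -4 to 0.21 for those above 4. An SD above 1 was found for 88 of 5336 detected named genes (1.65%) and 707 of 31981 features (2.21%). The steadiest genes with a level above 0 included IL2RG, the cytokine receptor chain shared by lymphocytes, at 5.39, 5.41, 5.43 and 5.39, and ADAM10, a sheddase, at 4.20, 4.19, 4.20 and 4.25. Their SDs of 0.02 hold for these probes alone. The other probes had SDs of 0.13 to 0.16 for IL2RG and 0.08 to 0.20 for ADAM10. The splicing factors SF3A3 and SF3B4 stood at 3.38 ± 0.02 and 1.35 ± 0.02. Among common reference genes ACTB had an SD of 0.05, GAPDH 0.13 and B2M 0.30.

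**Figure D4:**
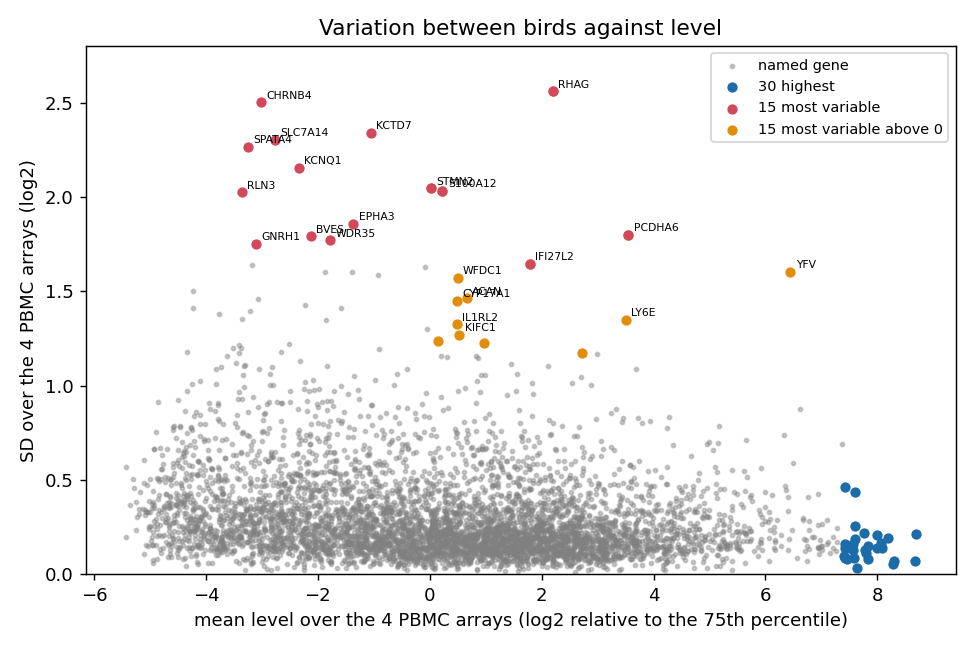
SD over the 4 PBMC arrays (y axis, log2) against mean level (x axis, log2 relative to the 75th percentile) for 5336 named genes detected on all 4 arrays. Blue marks the 30 highest genes, red the 15 most variable and orange further genes of the 15 most variable with a mean level above 0; RHAG is at the top with an SD of 2.56.

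The most variable named gene was RHAG, the Rh-associated glycoprotein of the red cell membrane, at 0.88, 4.38, -0.76 and 4.30 (SD 2.56, 1 probe). Birds 2 and 4 were high and birds 1 and 3 low. In whole blood it read 4.25, 4.32, 4.83 and 3.83, with no such division. Of the globins, HBA1 and HBAD likewise had birds 2 and 4 above birds 1 and 3, though over a smaller range, while HBBA, HBE1, HBE and HBBR were higher in bird 1 than in bird 2. The cause of the RHAG spread was not tested. RHCE, which the reference names as the Rh blood group gene, read -0.07, 1.99, -0.64 and -0.07, high in bird 2 alone.

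A set of genes kept the same bird pattern in both sample types, as their levels in the whole blood arrays show. For all the genes below, the pattern parts slide row 1 (birds 2 and 4) from slide row 2 (birds 1 and 3). Bird and row therefore cannot be told apart for them. LY6E, a membrane protein of the Ly6 family induced by interferon in mammals, read 2.53, 5.29, 2.39 and 3.83 in PBMC and 0.06, 3.14, 0.26 and 1.99 in whole blood. KCTD7, of the potassium channel tetramerisation domain family, read -3.06, 0.50, -3.05 and 1.39 in PBMC and -2.73, 1.65, -3.27 and 2.87 in whole blood. Both were higher in birds 2 and 4 in each sample type, without overlap. SLC7A14, of a family of amino acid transporters, ran the other way at -0.39, -4.62, -1.22 and -4.87, and 0.09, -4.19, -1.13 and -4.15 in whole blood. BGLAP, the bone protein osteocalcin, WFDC1, a secreted protein, and ACAN, the cartilage proteoglycan aggrecan, were also higher in birds 2 and 4 in both. BGLAP read 1.86, 4.04, 1.63 and 3.38 in PBMC. IL1RL2, the receptor for interleukin 36, read 2.25, -0.52, 0.77 and -0.55 and was higher in birds 1 and 3 in both.

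Other genes stood apart in 1 bird. STMN2, a microtubule regulator of neurons, read 3.09, -0.98, -0.97 and -1.04, and its other 2 probes were also highest in bird 1. In whole blood bird 1 was highest too, at 0.24, against -0.68 or less in the others. YFV, a class I gene of the chicken MHC-Y region, read 7.27, 4.07, 6.95 and 7.49, low in bird 2. It was low in the whole blood of bird 2 as well, at 6.45 against 8.06 or more. EPHA3, an ephrin receptor, read 1.30 in bird 1 and -1.75 or less in the others. KIFC1, a mitotic kinesin, was lowest in bird 4 at -1.20 in PBMC and -2.19 in whole blood. In PBMC bird 2, at 0.37, also lay below birds 1 and 3, at 1.42 and 1.54. On the other KIFC1 probes birds 2 and 4 were below birds 1 and 3 in both sample types. Bird and slide row therefore cannot be told apart for KIFC1.

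S100A12 and IFI27L2 were also in the 2 sets of most variable genes. S100A12, the entry to which the myeloid calcium-binding protein S100A9 was matched, read -2.44, 1.12, 2.32 and -0.09, lowest in bird 1 and highest in bird 3 like the monocyte genes. In whole blood it read 2.13, 3.12, 3.79 and 3.77, with bird 1 again lowest. IFI27L2, induced by interferon in mammals, read 0.55, 3.83, 0.37 and 2.42 on the brightest of 3 probes, and the other probes gave the same order of birds 2 and 4 above 1 and 3. In whole blood it stood at 7.66 to 7.92 in all birds. Outside those sets, DUSP1, a phosphatase gene of the immediate early response, read 0.93, 0.56, 2.02 and 2.66 (SD 0.97), and ACOD1, the itaconate-making enzyme of activated macrophages, 0.26, 0.93, 2.12 and 2.22 (SD 0.95).

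**Figure D5:**
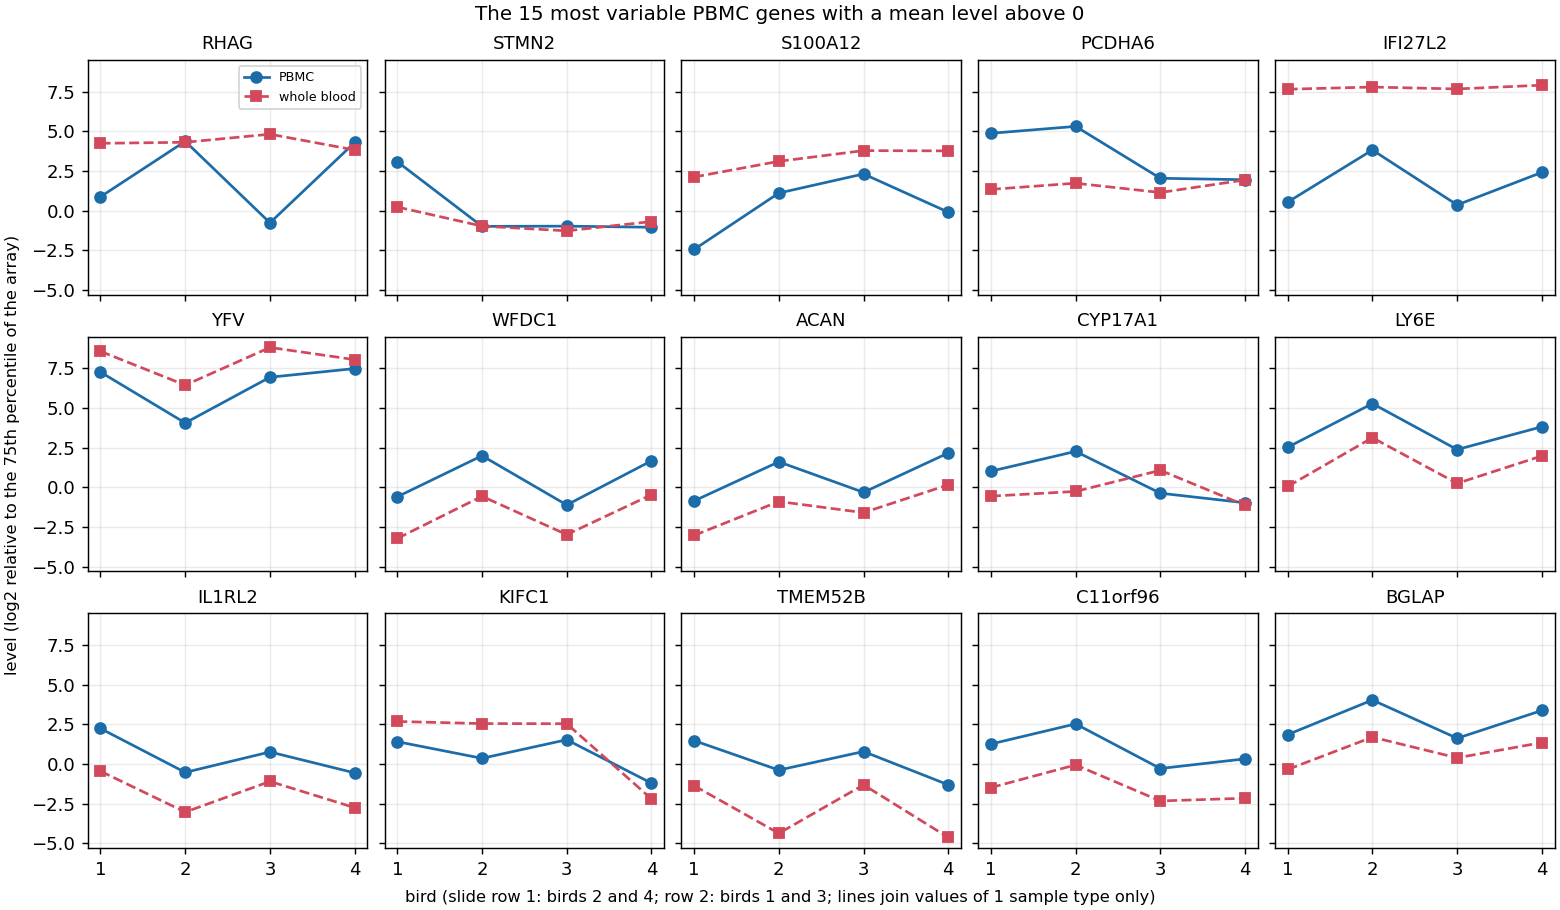
Levels (y axis, log2 relative to the 75th percentile) of the 15 most variable PBMC genes with a mean level above 0, by bird (x axis), in PBMC (blue) and whole blood (red); lines join arrays of the same sample type. LY6E, WFDC1, ACAN and BGLAP show the same bird pattern in both sample types, while RHAG, IFI27L2 and PCDHA6 vary far less in whole blood than in PBMC.

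The 2 sets of most variable genes, taken over all detected genes and over those above 0, held 25 genes, with 5 in both. IFI27L2 (SD 1.65) was the last inside the first set and TSPAN8 (1.64) the first outside, and BGLAP and TPM3 (both 1.17) bounded the other. Of the 25, 18 (72.0%) had slide rows that did not overlap, where 32.2% of detected features did. Among the 21 that were detected in all whole blood arrays too, 12 (57.1%) were highest in the same bird, against 36.7% of features, and 9 (42.9%) lowest in the same bird, against 36.9%. In 11 of the 21 (52.4%) the rows lay apart the same way in both sample types, against 13.4% of features. Features with an SD above 1 are closer to these genes in spread: 46.8% of them had rows apart, 58.6% had the same highest and 62.9% the same lowest bird, and 34.0% had rows apart the same way. The 25 genes were chosen for their spread, which widens gaps between birds, so these shares describe the set and were not tested. Both arrays of a bird shared the slide row.

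Probes of the same gene usually showed the same spread. Of the 25 genes, 18 had another detected probe, and for 16 of these every such probe also had an SD above 1. The exceptions were PCDHA6, a protocadherin, at 4.88, 5.32, 2.05 and 1.96 on its bright probe and with an SD of 0.10 on the other, and CYP17A1, a steroid-making enzyme, at 1.02, 2.27, -0.36 and -0.96 with SDs of 0.25 to 0.32 on its other 3 probes. The other PCDHA6 probe averaged -5.30, far below the bright probe, so its small SD cannot show whether the gene varied. For CYP17A1, whose next probe averaged -0.70, the spread was seen on a single probe.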

How the data were processed

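Cy3 spot intensity was deposited per array as written by Agilent Feature Extraction, version 10.7.3.1 per the file headers and 10.7.1.1 per the submitters' processing notes, background-subtracted within the array and not scaled between arrays. The authors also deposited a table of log2 values. Its columns have medians of 0 and equal the log2 median spot signal minus 1 constant per array, and its rows (46154) were used as an alternative. Groups come from the labels. The 1319 control spots per array and spots flagged as outliers (0 to 10 per PBMC array) were left out, and spots of a probe averaged. Probes were named by RefSeq accession, gene number or symbol through a RefSeq table (GRCg7b; headers name galGal3, so no coordinates are given). Symbols that are only locus numbers counted as unnamed.

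The text names the 30 highest genes, the 15 most and 10 least variable by stated rules, up to 4 bright and the most variable member of each of 27 lists, and a few markers (164 genes). RHCE, FLI1, SPI1, GP1BA, XK, CD14, CD4, CD8A, IL7R, CTLA4, ICOS, PAX5, BCL11A, JCHAIN, ZAP70, GZMM, EOMES, CCL5, IFNG, MX1, TAP1, TAP2, MMRN1, VWF, HBE, HBBR, HBZ, SLC25A37, CD86, IL6 and IL8L2 were added after their values were seen. Some genes that the rule takes are left out of the text. Members and lists were chosen with earlier results of these data known. Synonyms matched some members to other symbols (HBAA to HBA1, AVBD2 to DEFB4A), some of which name another gene: ALAS2 to ALAS1, CCNB2 to CCNB1, EIF4A1 to EIF4A2, PFN1 to PFN2, PKM to PKLR, PGK1 to PGK2, H3F3A to H3F3C, BLNK to SH2D6 and S100A9 to S100A12. The lists' values there rest on probes of the second symbol. The prefixes RPL and RPS also took RPL7L1 and RPS19BP1.

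Tests used limma 3.58.1 in R 4.3.3 (bird and sample type over 8 arrays; slide row in PBMC), on features detected on all arrays of at least 1 sample type, with a threshold of 0.05 after Benjamini-Hochberg adjustment, and were tested on simulated data. Tables were made with Python 3.11.15. All per-sample columns were mapped, with 0 unused. The replicate numbers pair the 2 sample types because both came from the same birds. The number of arrays limits the precision.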

Additional observations from a re-analysis of the deposited data

Results flagged for a closer look

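Within the 4 PBMC arrays, 167 values were screened for an array that stood apart from the rest by Dixon's criterion for groups of 4, and 9 (5.39%) did. Chance gives about 1 in 20 for independent values that were not selected. Many of the genes here were chosen for a large or small spread on the same arrays, or share a list. The share therefore cannot be set against chance. STMN2 was highest in bird 1 at 3.09, with the next at -0.97. YFV was lowest in bird 2 at 4.07, with the next at 6.95. CD247 was highest in bird 3 at 5.19 and TMSB4X highest in bird 1 at 7.34. CTSB was lowest in bird 3 at 4.76. XCR1, a chemokine receptor of cross-presenting dendritic cells, was highest in bird 3 at -3.24, with the next at -4.99. EIF2AK2, the antiviral kinase PKR, was highest in bird 2 at 3.18, and UBE2L3, a ubiquitin-conjugating enzyme, lowest in bird 2 at 2.14. The 75th percentile of the signal was highest in bird 1 at 846.1, with the next at 759. Of the 9, 3 fell in each of birds 1, 2 and 3 and 0 in bird 4. The causes were not tested.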

How the results depend on the processing

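Averaging a gene's probes in place of the brightest kept 17 of the 30 highest genes; every other alternative kept 28 to 30. Of 30 most variable genes, 9 remained when only genes with a mean level above 0 were ranked, and 20 to 29 under the other alternatives. The bird effect counted 1061 features, 168 with no filter on dim probes, 1900 with a spread that follows the level (added after seeing the data), and 117 to 769 when 1 PBMC array was left out (555 without bird 1, 117 without bird 2, 769 without bird 3, 241 without bird 4). The slide row difference within PBMC counted 0, but 339 over all 8 arrays (in a fit of row and sample type that treats both arrays of a bird as independent) and 5 among features detected on all arrays. The cause of these moves was not tested. The globin share stayed between 0.991 and 1.28% in every alternative run; it was not computed from the authors' table. The median SD lay between 0.19 and 0.24. Single levels moved by more than their SD in 215 recomputations and by less in 1097, the authors' table not counted. All 215 moves came from averaging probes, quantile normalization or a different background correction. Leaving out 1 PBMC array cannot shift a mean level by as much as its SD. The 1097 therefore include recomputations that could not have moved, and this count does not measure how stable the levels are. List medians moved by more than the list's median SD for 23 lists with probes averaged (3 did not) and 22 from the authors' table (4 did not). They moved for 7 lists after quantile normalization and 3 with the other background correction. Whether any result changed direction was not checked. No paired analysis was possible because no difference between sample types is reported; the bird fit itself holds the replicate number as its tested term. Dim probes limit what can be read at the low end, and naming covers 29.1% of the probes.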

Other observations

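Genes of the cell cycle were measurable in these PBMC. All 13 matched proliferation genes were detected on all 4 arrays, against 75.1% of all named genes. Their median level was -0.62, against -0.96 over all named genes. PCNA, the sliding clamp of DNA replication, led at 3.28, 2.92, 2.67 and 2.81 in birds 1 to 4. RRM2, a subunit of the enzyme that makes deoxynucleotides, varied most at -2.36, -0.13, -1.18 and -0.27, and read -4.64, -2.42, -3.24 and -2.35 in whole blood, lowest in bird 1 in both. It passed the bird test (limma adjusted p = 0.00776), and its adjusted p was at most 0.0569 when any PBMC array was left out. RRM2 was the only 1 of the 13 proliferation genes to pass, where 3.11% of all tested features did. Birds 2 and 4 of slide row 1 were above birds 1 and 3 of row 2 in both sample types, so bird and row cannot be told apart for RRM2.

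Mediators of inflammation were mostly dim, with a median of -2.10 over 12 genes. NFKBIA, the inhibitor of NF-kappaB, was the brightest at 3.95 ± 0.14, and IL6 was detected on no array. IL8L2, a chemokine for heterophils, read -2.96, -5.44, -2.06 and -5.99 and was detected on 3 arrays. GATA2, a factor of basophils, mast cells and progenitors, stood at 4.08 ± 0.37, while KIT was detected on 3 arrays at a mean of -5.29. Chaperones had a median of 3.31 over 13 genes, and HSPA8 read 5.87, 6.18, 6.92 and 6.50.

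Of the 100 highest named genes, 29 were in no list. They included PSAP, the precursor of lysosomal activators, at 7.20, OAZ1, the antizyme of polyamine synthesis, at 6.78, ILK, a kinase at integrin contacts, at 6.41, and BG8, a butyrophilin-like gene of the chicken MHC, at 6.32 ± 0.74. TIMP3, an inhibitor of matrix proteases, stood at 5.93 ± 0.56. These were picked after their values were seen.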
